A study of Mus musculus with 4 samples.

Results

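The genes described here are 10 transcripts that ERK signalling is known to switch on: the Sprouty genes Spry1, Spry2 and Spry4, the Spred genes Spred1 and Spred2, the MAP kinase phosphatase genes Dusp4 and Dusp6, and the early response genes Egr1, Ier2 and Ier3. They were taken by symbol from a table of 51826 genes, and all 10 were found once. They were measured by RNA sequencing in mouse C57BL/6 embryonic stem cells that had been differentiated for 3 days towards mesoderm. There were 2 wild-type libraries (called wild type 1 and 2) and 2 libraries from Stk40-/- cells, which lack the pseudokinase gene Stk40 (the mutant cells, libraries Stk40-/- 1 and 2). All 4 cultures had been kept on feeder cells with LIF, the GSK3 inhibitor CHIR99021 and the MEK inhibitor PD0325901. For differentiation they were moved off the feeders, exposed for 2 days to BMP4 (10 ng/ml), and on the last day to 15% serum replacement, CHIR99021 at 1 uM and 0.5% DMSO. The labels do not say whether the 2 libraries of a genotype came from separate cultures or whether each genotype is 1 clone, so the p-values speak only for the spread among these libraries, which may be technical, and a difference between genotypes cannot be told apart from one between lines.

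In the ERK pathway a growth factor such as an FGF binds its receptor, RAS and the RAF and MEK kinases are activated in turn, and ERK is phosphorylated and enters the nucleus. There it induces early genes within minutes, and also genes whose products damp the pathway again: Sprouty and Spred proteins act on the steps between receptor and RAF, and the phosphatase encoded by Dusp6 removes phosphate from ERK itself. Exit from the ground state of embryonic stem cells and formation of mesoderm both depend on FGF and ERK signals, and Stk40 has been linked to ERK signalling in stem cells. Transcript levels are not a measure of ERK activity, and protein and phosphorylation were not analysed here.

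Values are TPM, a transcript level scaled for transcript length and library size, so that levels can be set side by side between genes. The sequencing depth behind a TPM value is unknown. Fold changes are log2 differences, Stk40-/- minus wild type, on the log2(TPM + 1) scale, with the standard error (SE) and 95% interval from limma, and p-values are adjusted over the 15739 genes that averaged 1 TPM or more. Stk40 was at 28.9 and 39.9 TPM in wild type against 3.54 and 3.17 TPM in mutant cells, in the direction of the labels. Its log2 fold change was -3.01 (SE 0.21, limma adjusted p = 0.139). Of the 11 markers of streak and mesoderm, 6 lay below 1 TPM on average, among them Mesp1, Tbx6, Pdgfra and Kdr, and T, which encodes brachyury, made up most of the summed level of the list. That sum was 1151 and 555 TPM in wild type against 364 and 225 TPM in mutant cells. Msgn1, a factor of presomitic mesoderm (90.6 and 7.22, then 0.975 and 0 TPM), and Mixl1, a homeobox factor of the streak (24.7 and 6.77, then 2.06 and 1.71 TPM), were lower without overlap, with wild type 1 as the high library. Eomes (3.91 and 2.37, then 2.82 and 2.51 TPM) and Hand1 (3.11 and 2.27, then 1.51 and 2.48 TPM) had overlapping groups. The pluripotent markers summed to 526 to 662 TPM in wild type, against 638 to 689 TPM in mutant cells. Pou5f1 (370 and 473, then 372 and 465 TPM, overlapping) made up most of that sum. Of 7 tested, 2 lay higher, 1 lower and 4 overlapped. Nanog (113 and 132, then 219 and 166 TPM) was higher, and Zfp42 (17.99 and 17.51, then 12.58 and 13.03 TPM) lower. Klf4 was also higher, at low levels (1.13 and 2.07, then 3.31 and 2.10 TPM), with wild type 2 and Stk40-/- 2 nearly equal. Of 3 endoderm markers tested, Dab2 lay lower (6.46 and 5.93, then 5.36 and 4.85 TPM) and 2 overlapped. Of 3 neuroectoderm markers tested, Tubb3 and Sox1 lay higher and 1 overlapped. Tubb3 was at 2.66 and 3.97, then 4.84 and 11.45 TPM, and Sox1 at 0.81 and 0.50, then 1.96 and 1.15 TPM. Of 10 feeder fibroblast markers the sums ran from 49.1 to 79.2 TPM and from 45.8 to 47.3 TPM, Lum and Postn were below 1 TPM in every library, and S100a4 was at 16.7 TPM in wild type 2 and listed at 0 in the other 3. Fbln1 (24.6 to 29.8 TPM) made up much of these sums. Of the 7 feeder markers tested 3 lay lower without overlap and 0 higher, beside 16.6% lower and 27.5% higher over all tested genes. Their median log2 fold change was -0.75. The lower markers were Col1a1 (6.98 and 7.29, then 3.96 and 3.74 TPM), Col1a2 (2.80 and 6.87, then 1.33 and 2.31 TPM) and Col3a1 (1.35 and 6.31, then 0.113 and 0.609 TPM). Col1a2 and Col3a1 also differed widely between the wild-type libraries. The part of feeder cells in the values below was not tested. A bulk level cannot tell fewer cells of a type from less RNA per cell.

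All 10 genes passed the filter on low values, and limma called 0 of them, as it called 0 of all genes in either direction (0% of genes higher, 0% lower). Stk40 itself was not called (limma adjusted p = 0.139), so 0 calls do not show equal levels. At an unadjusted p under 0.05 limma had 0 of the 10 and 1730 of all tested genes (11%). Both mutant libraries had lower values than either wild-type library for 6 of the 10: Dusp6, Dusp4, Spry2, Spry4, Spred2 and Ier2. Among all tested genes the share with that order was 16.6%. For 1 gene, Spred1, both mutant values exceeded both wild-type values (27.5% of all tested genes), and for Spry1, Egr1 and Ier3 the groups overlapped. Counting either direction, 7 of 10 did not overlap, beside 44% of all tested genes. The median log2 fold change of the 10 genes was -0.28, with 7 of 10 negative, beside a median of 0.07 and 41.4% negative over all tested genes. With the library medians made equal, 18.7% of all tested genes lay higher and 25.1% lower, and the same 6 of the 10 genes were lower, while Spred1 then overlapped. The smallest adjusted p among the 10 was 0.484, for Spry2 (limma).

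**Figure D1:**
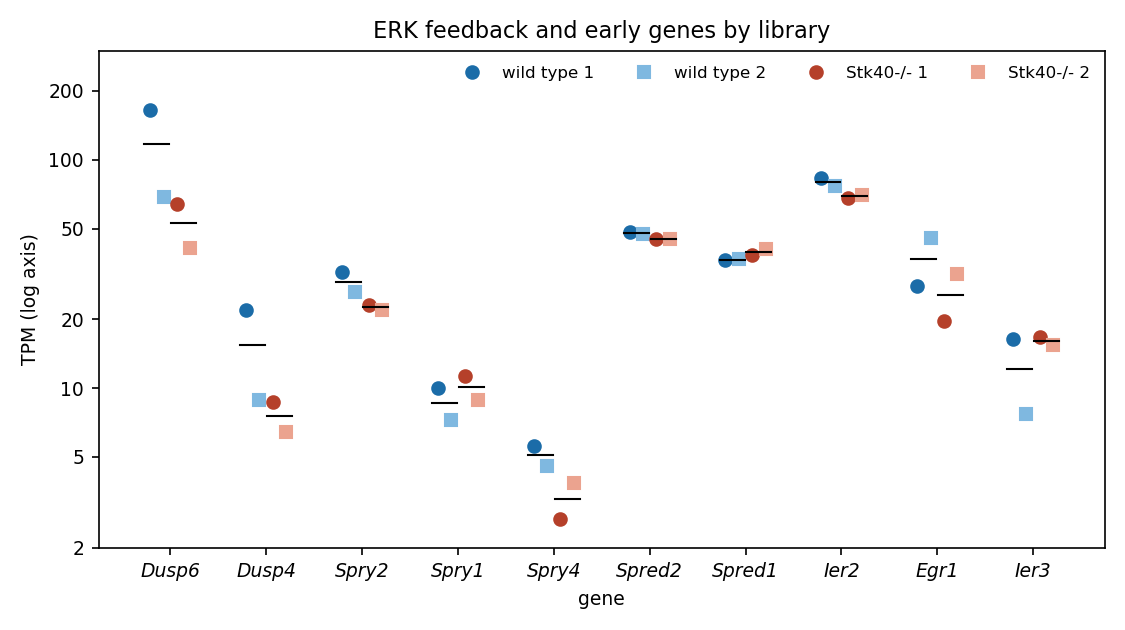
TPM of each gene on a log axis, with 1 point per library (circles for libraries numbered 1, squares for those numbered 2, blue for wild type and red for Stk40-/-) and a black line at each genotype's mean. Dusp6 and Dusp4 show 1 wild-type library far above the other 3, while the 4 points of Spred1 and of Spred2 nearly coincide.

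The phosphatase genes had the most negative fold changes of the 10. Dusp6 encodes a cytoplasmic phosphatase that is selective for ERK (ENSMUSG00000019960.8, GRCm38 chromosome 10, 99263231 to 99267489, plus strand, with 3 exons in its longest transcript). It was at 165 and 68.8 TPM in wild type against 64.3 and 41.1 TPM in mutant cells. Wild type 1 stood far above the rest, and the lower wild-type library and the higher Stk40-/- library were close to each other. The means were 117 ± 68.2 and 52.7 ± 16.4 TPM (SD, n = 2 each), and the log2 fold change was -1.04 (SE 0.49, 95% interval -2.35 to 0.27, limma adjusted p = 0.515). The difference between the 2 wild-type libraries, 1.25 on the log2 scale, was larger than the difference between genotypes, and 8.27% of all tested genes differed by more between those libraries. Without wild type 1 the log2 fold change of Dusp6 was -0.41, and without wild type 2 it was -1.66.

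Dusp4, which encodes a nuclear MAP kinase phosphatase (ENSMUSG00000031530.6, chromosome 8, 34807297 to 34819894, plus strand, 4 exons), had the same order of libraries at lower levels. It was at 22.1 and 8.91 TPM in wild type against 8.66 and 6.44 TPM in mutant cells. Again wild type 1 was the high library, and wild type 2 and Stk40-/- 1 were nearly equal. The log2 fold change was -0.83 (SE 0.46, 95% interval -2.08 to 0.41, limma adjusted p = 0.570), and it was -0.23 without wild type 1 and -1.44 without wild type 2. For both phosphatase genes, then, most of the difference between genotype means came from wild type 1.

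The ratio of Dusp6 to Dusp4 within a library stayed between 6.39 and 7.72, although Dusp6 varied 4.02-fold and Dusp4 3.43-fold over the 4 libraries. Each was the other's nearest among the 10 genes when the centred log2 profiles were compared (distance 0.27 over 4 libraries). The streak gene T was at 1025 and 535 TPM in wild type against 355 and 217 TPM in mutant cells. T and Dusp6 thus had the same order of libraries, as did Msgn1 and Mixl1. Spry2, Spred3, Fgf8, Etv1, Epha2 and Ets1, among others, had that order too, and its share over all tested genes was not counted. The ratio of T to Dusp6 lay between 5.28 and 7.77 while T varied 4.72-fold. These ratios are descriptions chosen after the values were seen, over libraries that share their total by construction, and the part of mesoderm content in the Dusp6 and Dusp4 values was not tested. Outside the 10 genes, the profiles nearest to Dusp6 among 10897 genes that averaged 5 TPM or more were those of Xaf1 (12.6, 5.32, 4.32 and 2.68 TPM, in the order wild type 1 and 2, Stk40-/- 1 and 2), Frmd4b (41.3, 17.3, 17.1 and 11.1 TPM) and Gbp2 (250.3, 118, 109 and 60.9 TPM). Their distances were 0.13, 0.14 and 0.19 on the log2 scale.

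**Figure D2:**
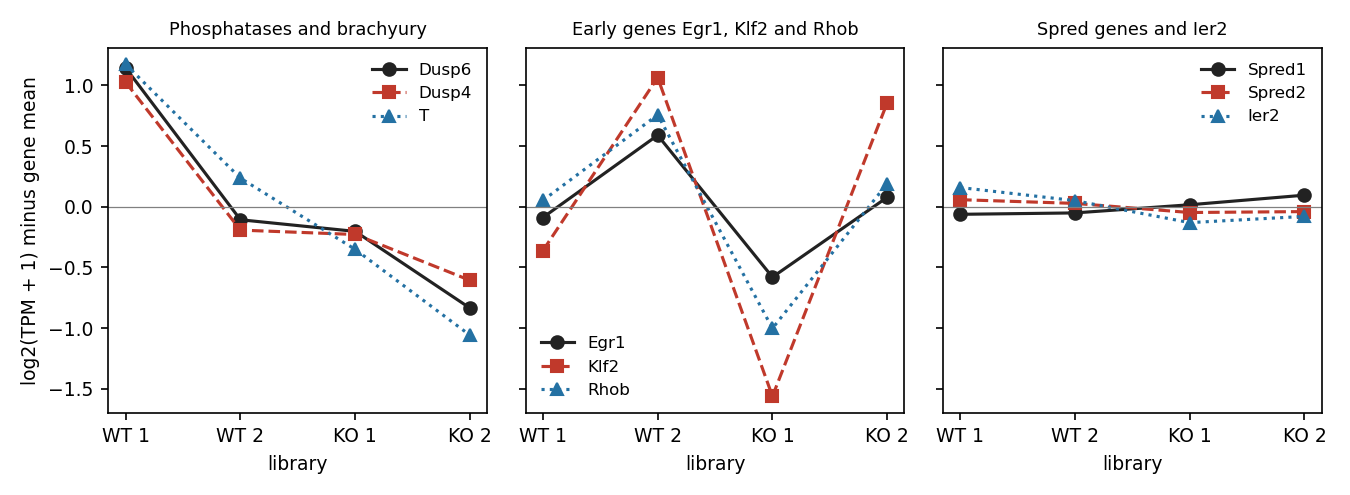
log2(TPM + 1) of each gene minus its own mean (vertical axis) in the 4 libraries (horizontal axis, WT for wild type and KO for Stk40-/-), with lines joining the values of 1 gene only to guide the eye. Dusp6, Dusp4 and T are highest in wild type 1 and lowest in Stk40-/- 2, Egr1, Klf2 and Rhob are higher in library 2 than in library 1 of each genotype, and Spred1, Spred2 and Ier2 stay close to their means.

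None of the other MAP kinase phosphatase genes had both mutant values below both wild-type values. Of 8 tested, 0 were called, 4 lay higher in both Stk40-/- libraries and 0 lower (27.5% higher and 16.6% lower over all tested genes), with a median log2 fold change of 0.04. Dusp1, an early response phosphatase, was at 27.5 and 29.1 TPM in wild type against 36.3 and 33.8 TPM in mutant cells. Dusp7, a cytoplasmic ERK phosphatase of the same subfamily as Dusp6, was at 10.5 and 9.43 TPM and at 14.2 and 20.8 TPM. Those groups did not overlap, and their order was opposite to that of Dusp6. Dusp10 (6.61 and 6.32, then 7.98 and 9.44 TPM) and Dusp16 (17.55 and 17.5, then 17.6 and 21.9 TPM), which act mainly on JNK and p38, were also higher, Dusp16 by very little in Stk40-/- 1. Dusp5 was at 30.9 and 21.6 TPM in wild type against 26.3 and 23.1 TPM in mutant cells, and Dusp9 at 39.9 and 31.4 TPM and at 37.6 and 23.7 TPM, with overlapping groups. Dusp2 was at 6.47 TPM in wild type 1 and between 1.46 and 2.21 TPM in the other libraries, so that wild type 1 was again the high library.

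The Sprouty genes encode inhibitors that dock on adaptor proteins near the receptor. Spry2 (ENSMUSG00000022114.4, chromosome 14, 105891947 to 105896819, minus strand, 2 exons) was the most abundant of them, at 32.1 and 26.3 TPM in wild type against 23.1 and 22.1 TPM in mutant cells. The groups did not overlap, and the Stk40-/- libraries differed from each other by less than the wild-type libraries did. Its log2 fold change was -0.35 (SE 0.15, 95% interval -0.75 to 0.04, limma adjusted p = 0.484), larger in size than the gap between the wild-type libraries, 0.28, and it was -0.21 without wild type 1. Spry4 (ENSMUSG00000024427.6, chromosome 18, 38586247 to 38601415, minus strand, 2 exons) was the least abundant of the 10 genes in every library. It was at 5.59 and 4.58 TPM in wild type against 2.68 and 3.86 TPM in mutant cells, without overlap. Its log2 fold change was -0.52 (SE 0.27, 95% interval -1.26 to 0.22, limma adjusted p = 0.556), and it was -0.72 without Stk40-/- 2 and -0.32 without Stk40-/- 1.

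Spry1 (ENSMUSG00000037211.12, chromosome 3, 37639947 to 37644598, plus strand, 2 exons) had the opposite sign. It was at 9.99 and 7.24 TPM in wild type against 11.3 and 8.84 TPM in mutant cells, and in both genotypes the library numbered 1 was the higher. The groups overlapped, with a log2 fold change of 0.21 (SE 0.24, 95% interval -0.43 to 0.85, limma adjusted p = 0.741). Its value was 0.42 without wild type 1, and near 0 without wild type 2. A gene model on the other strand, Gm42922, overlaps the start of Spry1 and was below 1 TPM in each library. The ratio of Spry2 to Spry1 was 3.22 and 3.64 in wild type and 2.04 and 2.50 in mutant cells, and the ratio of Spry2 to Spry4 was 5.75, 5.75 and 5.71 in 3 libraries and 8.61 in Stk40-/- 1. The level of Spry3 was not analysed here.

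The Spred genes encode relatives of the Sprouty proteins that bring the RAS inactivator neurofibromin to the membrane, and they had the smallest differences of the 10. Spred1 (ENSMUSG00000027351.14, chromosome 2, 117121374 to 117182279, plus strand, 7 exons) was at 36.3 and 36.6 TPM in wild type against 38.4 and 40.6 TPM in mutant cells. Its groups did not overlap, but its log2 fold change of 0.11 (SE 0.10, 95% interval -0.16 to 0.38, limma adjusted p = 0.672) was near the median of all genes. Spred2 (ENSMUSG00000045671.17, chromosome 11, 19924375 to 20024026, plus strand, 7 exons) was at 48.3 and 47.3 TPM in wild type against 44.8 and 45.0 TPM in mutant cells. The log2 fold change was -0.09 (SE 0.09, 95% interval -0.34 to 0.16, limma adjusted p = 0.726). Replicates of both genes were nearly equal, with wild-type libraries apart by 0.01 and 0.03 on the log2 scale, so the absence of overlap marks small differences here. The fold changes of Spred1 and Spred2 had opposite signs, and their summed level was between 83.2 and 85.7 TPM in each of the 4 libraries. Spred3, the third member of the family, was at 9.99 and 7.93 TPM in wild type against 6.26 and 6.06 TPM in mutant cells (log2 fold change -0.47, SE 0.20, limma adjusted p = 0.491). Nf1, which encodes neurofibromin, had overlapping groups (20.3 and 17.4 TPM in wild type against 18.2 and 18.9 TPM in mutant cells).

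The 3 early genes differed from each other. Ier2 encodes a small nuclear protein induced early by growth factors (ENSMUSG00000053560.4, chromosome 8, 84661331 to 84662852, minus strand, 1 exon). It was at 83.2 and 77.1 TPM in wild type against 67.9 and 70.4 TPM in mutant cells, without overlap and with close replicates. The log2 fold change was -0.21 (SE 0.09, 95% interval -0.45 to 0.03, limma adjusted p = 0.497). Because Dusp6 varied more, Ier2 was the most abundant of the 10 genes in 3 libraries and stood behind Dusp6 in wild type 1.

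Egr1 encodes a zinc finger transcription factor and is among the best known early targets of ERK (ENSMUSG00000038418.7, chromosome 18, 34859823 to 34864984, plus strand, 2 exons). It was at 28.0 and 45.5 TPM in wild type against 19.7 and 31.6 TPM in mutant cells. The groups overlapped, because library 2 was higher than library 1 in each genotype by nearly the same step, 0.68 in wild type and 0.66 in mutant cells on the log2 scale. The log2 fold change was -0.50 (SE 0.34, 95% interval -1.42 to 0.41, limma adjusted p = 0.635), and over the fits without 1 library it ran from -0.84 to -0.16. The labels do not say that equal numbers mark a shared culture or day. Among the other immediate early genes, Klf2 (7.83 and 22.7 TPM in wild type against 2.84 and 19.6 TPM in mutant cells) and Rhob (57.9 and 95.1 TPM, then 27.4 and 63.9 TPM) were likewise higher in library 2 than in library 1 of each genotype, by steps larger than those of Egr1, and they were picked for it after the values were seen. Of the other Egr genes, Egr2, Egr3 and Egr4 had means below 1 TPM and were not tested.

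Ier3 encodes a stress and growth factor response protein linked to ERK and cell survival (ENSMUSG00000003541.6, chromosome 17, 35821684 to 35822923, plus strand, 2 exons). It was at 16.4 and 7.72 TPM in wild type against 16.7 and 15.5 TPM in mutant cells. Wild type 2 was the only low library, and the other 3 were close together. It had the most positive fold change of the 10, 0.47 (SE 0.37, 95% interval -0.52 to 1.47, limma adjusted p = 0.640), which was 0.97 without wild type 1 and -0.027 without wild type 2, so that its direction rested on wild type 2. The nearest profiles outside the 10 were those of Cradd (9.23, 3.94, 9.03 and 8.30 TPM in the same order of libraries), Gm2237 (6.89, 3.20, 7.26 and 6.70 TPM) and Pnpla8 (33.4, 16.8, 35.9 and 34.6 TPM), at distances of 0.05, 0.07 and 0.09.

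**Figure D3:**
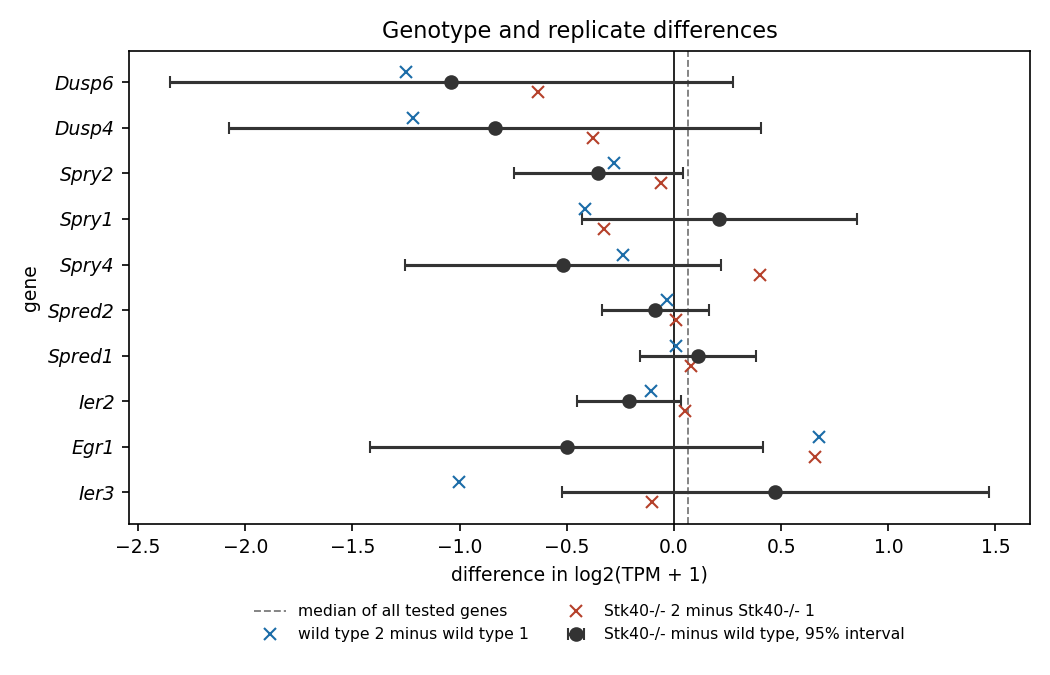
Differences in log2(TPM + 1) for each of the 10 genes: black points are Stk40-/- minus wild type with limma's 95% interval, crosses are library 2 minus library 1 within a genotype (blue for wild type, red for Stk40-/-), and the dashed line is the median of all tested genes, 0.07. Every interval includes 0, and the blue crosses of Dusp6, Dusp4 and Ier3 are the farthest from 0.

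The spread between replicates was thus unlike from gene to gene. The difference between the wild-type libraries was larger than the difference between genotypes for 5 of the 10 genes (Dusp6, Dusp4, Spry1, Egr1 and Ier3), beside 52.9% of all tested genes. Wild type 1 was above wild type 2 for 8 of the 10 genes, and in all tested genes for 53.0%. Summed over the 10 genes the level was 447 and 330 TPM in wild type against 298 and 285 TPM in mutant cells. Dusp6 alone was 36.9% of that sum in wild type 1, 20.8% in wild type 2, 21.6% in Stk40-/- 1 and 14.4% in Stk40-/- 2. Without Dusp6 the sums were 282 and 261 TPM in wild type against 233 and 244 TPM in mutant cells, and the groups still did not overlap.

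By mean level in wild type the order was Dusp6, Ier2, Spred2, Egr1, Spred1, Spry2, Dusp4, Ier3, Spry1 and Spry4. Dusp6 and Ier2 overlapped in their wild-type values, as did Egr1 with Spred1 and with Spry2, and Dusp4 with Ier3 and Spry1. Spred2 lay above Egr1 in both libraries. In mutant cells Ier2 stood first, before Dusp6 (52.7 ± 16.4 TPM) and Spred2 (44.9 ± 0.170 TPM), whose values overlapped, and Dusp4 stood ninth, below Ier3 (16.1 ± 0.860 TPM) and Spry1 (10.1 ± 1.77 TPM).

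The stretch just upstream of the start site is shown for Dusp6 and Spry2, since both had non-overlapping lower values and a start site that is the same base in RefSeq and in GENCODE. RefSeq sequences on GRCm38.p6 were found for 6 of the 10 genes: Spry1, Spry2, Spred1, Spred2, Dusp6 and Ier3. The windows are the 250 bases before the start, 5′ to 3′ on the strand of the gene, at chr10:99262981-99263230 (plus strand) for Dusp6 and at chr14:105896820-105897069 (minus strand) for Spry2. Capitals mark GGAA, the core that ETS transcription factors bind, on either strand, so that TTCC is its reverse complement.
Dusp6: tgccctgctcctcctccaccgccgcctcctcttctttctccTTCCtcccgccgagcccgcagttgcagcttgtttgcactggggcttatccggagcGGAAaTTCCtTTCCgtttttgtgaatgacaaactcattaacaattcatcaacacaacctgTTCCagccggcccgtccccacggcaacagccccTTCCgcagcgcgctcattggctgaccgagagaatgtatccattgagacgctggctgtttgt
Spry2: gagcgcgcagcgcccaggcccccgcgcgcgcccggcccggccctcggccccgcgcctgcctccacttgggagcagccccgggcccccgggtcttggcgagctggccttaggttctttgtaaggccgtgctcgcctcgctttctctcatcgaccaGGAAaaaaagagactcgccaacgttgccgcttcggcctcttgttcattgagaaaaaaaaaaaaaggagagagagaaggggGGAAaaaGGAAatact

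The Dusp6 window held 6 matches to GGAA and the Spry2 window 3, where the median over 32851 RefSeq promoter windows of the same length was 3. Matches were common in general: 93.4% of the windows held at least 1, and 8.69% held as many as Dusp6 or more. Spred2, also lower without overlap, had 7 matches. Of the genes that were not lower, Spry1 had 1, Spred1 had 4 and Ier3 had 5. Spry2, which was lower, thus had fewer matches than Spred1 and Ier3, and a link of matches to genotype was not tested. The RefSeq start minus the GENCODE start was -303 bases for Spred1, 67 for Spred2 and 29 for Ier3. Their windows therefore do not end at the GENCODE start. The GGAA core was added after the sequences had been seen, because the longer motifs searched on both strands gave almost nothing. The serum response CArG box (in 1.47% of all windows), the ETS motif CCGGAA (12%), the AP-1 motif TGANTCA (6.75%) and the CRE motif TGACGTCA (1.55%) were in 0 of the 6 windows, and the shorter TGACG, which lies within the CRE motif (17.8% of windows), was in 1, that of Spred2. A match is a run of letters and not a bound site, and no match says only that the letters are not in these 250 bases.

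Other genes of the pathway had fold changes of both signs. Over the 8 lists of ERK pathway genes that exclude the 10, 107 genes were tested and 0 were called, 15 lay lower and 35 higher in both Stk40-/- libraries (16.6% lower and 27.5% higher over all tested genes, so that the counts were near the background), and the median log2 fold change was 0.02. The counts of each list below are to be read against the same shares. The lists share some genes with each other. Of the 13 ERK output genes, transcripts often used as a readout of the pathway, 2 lay lower, 4 higher and 7 overlapped (median -0.08). Il17rd, a feedback inhibitor at the receptor, was at 35.7 and 28.4 TPM in wild type against 34.4 and 27.0 TPM in mutant cells. Its groups overlapped, as did those of the ETS factor gene Etv4 (44.3 and 31.7 TPM, then 33.9 and 34.0 TPM). The ETS factor gene Etv5 was higher in mutant cells (62.3 and 64.1 TPM, then 75.8 and 72.0 TPM, log2 fold change 0.22, SE 0.09, limma adjusted p = 0.473). Il17rd, Etv4 and Etv5 were therefore not ordered like Dusp6. Other output genes named by the rule did share its order of libraries. They were Etv1 (10.1 and 9.34, then 7.71 and 6.77 TPM) and the ephrin receptor gene Epha2 (66.2 and 56.6, then 46.3 and 43.8 TPM), both lower. Ccnd1, the cyclin D1 gene (54.3 and 52.7, then 61.3 and 64.7 TPM), and Trib1 (6.33 and 7.23, then 13.9 and 19.2 TPM), also named by the rule, were both higher.

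**Figure D4:**
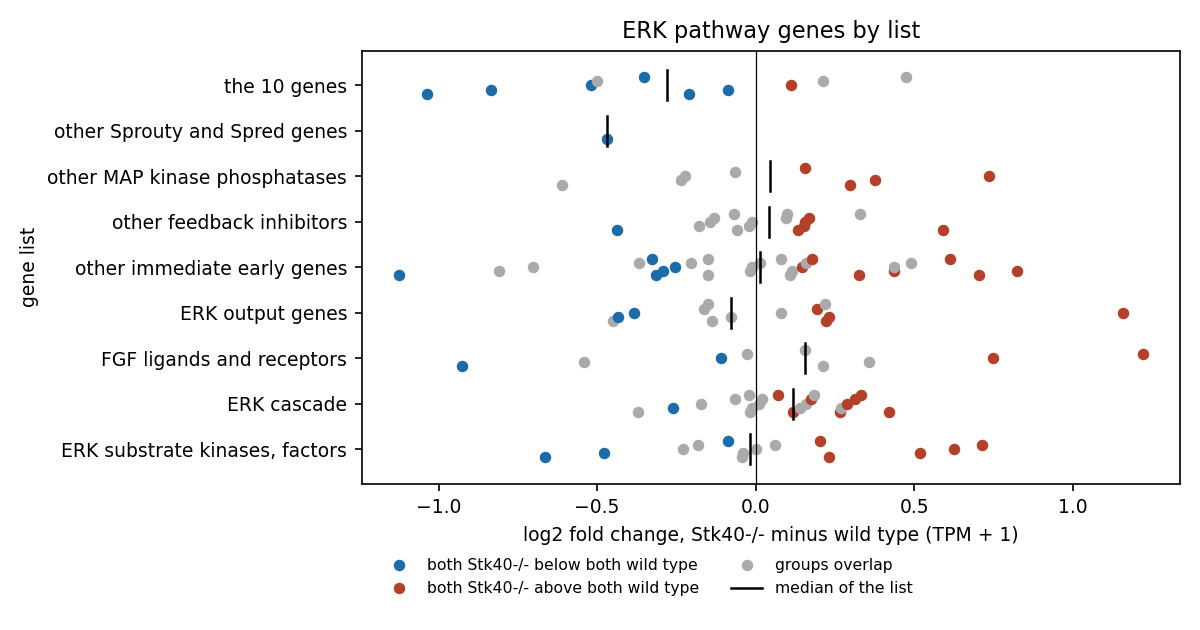
log2 fold change, Stk40-/- minus wild type, of every tested gene in each list (1 point per gene), blue where both mutant values were below both wild-type values, red where both were above and grey where the groups overlapped, with a black line at the median of the list. The 10 genes have a median of -0.28, and the lists of more than 1 gene have medians between -0.08 and 0.15.

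Of the other immediate early genes 27 were tested, 7 lay higher, 5 lower and 15 overlapped (median 0.01). Fos, an AP-1 subunit gene, was at 4.01 and 4.84 TPM in wild type against 1.73 and 1.26 TPM in mutant cells. Its groups did not overlap, and it was lower by more than Egr1 or Ier2 on the log2 scale, with a log2 fold change of -1.13 (SE 0.30, limma adjusted p = 0.400). Jun was at 21.1 and 26.0 TPM in wild type against 18.8 and 21.8 TPM in mutant cells, with overlap. The survival gene Mcl1 (164 and 178, then 233 and 229 TPM), the stress response gene Gadd45b (46.6 and 35.4, then 90.3 and 58.6 TPM), the matrix protein gene Ctgf (64.2 and 69.0, then 131 and 90.8 TPM) and the TGF-beta responsive Klf10 (28.9 and 39.0, then 48.4 and 55.7 TPM) were higher, opposite to Fos, Ier2 and Egr1.

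Upstream of ERK, the ligand genes differed in order. Fgf8, the main FGF of the streak, was at 97.8 and 82.6 TPM in wild type against 51.8 and 42.3 TPM in mutant cells. Fgf4 (3.13 and 5.90, then 13.4 and 9.78 TPM) and Fgf5 (3.70 and 5.81, then 10.3 and 7.01 TPM), ligand genes of pluripotent cells and the epiblast, were higher. The receptor gene Fgfr1 was at 119 and 105 TPM in wild type against 104 TPM in both mutant libraries. Of 21 cascade genes from adaptors to ERK, 8 lay higher, 1 lower and 12 overlapped (median 0.12). Braf (17.7 and 12.6, then 21.3 and 19.4 TPM), Mapk3, which encodes ERK1 (81.4 and 71.4, then 92.9 and 94.0 TPM), and Sos1 (8.36 and 8.39, then 11.8 and 9.64 TPM) were among the higher. The median of all tested genes was 0.07, with 27.5% higher and 16.6% lower.

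Among 16 other inhibitors of receptor and RAS signalling 5 lay higher, 1 lower and 10 overlapped (median 0.04). The lower gene was Lrig1 (15.8 and 13.3, then 10.1 and 10.8 TPM), and the higher ones included the RAS GTPase activator gene Rasa1 (34.5 and 18.4, then 35.6 and 41.8 TPM), Socs6 (27.5 and 25.4, then 31.6 and 28.2 TPM) and Cblb (9.34 and 9.33, then 10.3 and 10.7 TPM). Of 14 genes for ERK substrate kinases and transcription factors 5 lay higher, 3 lower and 6 overlapped (median -0.02). Ets1 was lower (18.9 and 12.8, then 10.1 and 8.83 TPM), and Cic, a repressor that ERK inactivates, was higher (43.0 and 70.8, then 93.5 and 78.5 TPM), as were Rps6ka2 (10.3 and 12.0, then 13.4 and 12.9 TPM) and Rps6ka4 (3.99 and 4.40, then 6.78 and 6.10 TPM).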

How the data were processed

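Polyadenylated RNA was read in pairs on either of a pair of instruments with different read lengths, per the labels' protocols. The labels do not tie a library to an instrument, so read length and genotype could not be separated. The deposited values were TPM per gene, made by the authors, per the file headers, and each library summed to 1000000. Per the submitters' processing notes the tools were CASAVA 1.7 and Salmon 0.8.2 and the build the human hg38, although the gene IDs are mouse. The authors' annotation is not given in the sources. Positions are from GENCODE vM21 (GRCm38), where 51633 of 51826 IDs matched without their version. TPM keeps no depth, and a rise in abundant RNAs lowers all other values of that library. There were 0 unused per-sample columns.

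The 15739 genes that averaged 1 TPM or more were fitted on log2(TPM + 1) with limma 3.58.1 (R 4.3.3), with an intensity trend and Benjamini-Hochberg adjustment (threshold 0.05), 2 against 2 libraries with no replicate block. The fit was tested on simulated data. An exact permutation test of 2 against 2 cannot go below p = 0.333. The 10 genes and the lists were chosen with earlier results of these data known. The genes named were the 10, Stk40, Jun, up to 4 per list with non-overlapping groups and a mean of at least 5 TPM by size of change, 15 fixed pathway genes, and the nearest 3 profiles of the genes with the lowest and the highest fold change. Of these, 1 gene is not reported here. Klf2, Rhob, Nf1, Junb, Atf3, Nr4a1, Ier5, the levels of Eomes, Hand1 and Pou5f1, and the ratios were added after the values were seen. The alternatives are given in the closing section.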

Additional observations from a re-analysis of the deposited data

How the results depend on the processing

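Under the 9 alternatives with all 4 libraries (pseudocounts of 0.1 and 0.01, filters at a mean above 0 and of at least 5 TPM, no intensity trend, equal medians, quantile normalization, removal of mitochondrial and ribosomal protein genes, replicate block) and the 4 fits without 1 library, limma called 0 genes and 0 of the 10. The smallest adjusted p of any gene ran from 0.0694 to 0.680. The median log2 fold change of the 10, -0.28, ranged from -0.36 with equal medians to -0.21 at a mean of at least 5 TPM, where Spry4 was not tested, and from -0.28 to -0.18 without 1 library. Of the 10 fold changes 1 changed sign: that of Ier3 ran from -0.027 (without wild type 2) to 0.97 (without wild type 1) with 1 library left out. Replicate numbers are shared between genotypes, but nothing says that they pair the samples, and the library differences of the genotypes correlated at 0.089 across genes. With the replicate block the SE of Dusp6 was 0.19 (adjusted p = 0.304) and that of Egr1 0.11 (adjusted p = 0.318), with 0 calls and a median of -0.28. With no depth in TPM, counting error could not be separated from other spread, and with 1 library left out the lone library is assumed to vary like the other group.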
